A study of Mus musculus with 12 samples.

Results

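The regions described here are those of the mouse genome that were called accessible by ATAC-seq in asynchronous embryonic stem cells (ESCs), in mitotic ESCs and on flow-sorted mitotic chromosomes. They were chosen by the deposited peak calls: overlapping or touching peaks of all 12 libraries on chromosomes 1 to 19 and X were joined, and a merged region was kept when at least 3 of 4 libraries of each preparation had a peak in it, genotypes pooled. This gave 1228 members among 231395 merged regions, or 0.531%. WT ESCs and Suv39h dn ESCs, which lack both the H3K9 methyltransferases Suv39h1 and Suv39h2, were each used in 3 preparations, namely asynchronous cells, cells blocked in mitosis by demecolcine and native chromosomes sorted from such cells, with 2 libraries for each of these 6 groups. Each genotype was represented by 1 ESC line grown with LIF, and the paper states that all its lines were male. A difference between genotypes thus cannot be told apart from a difference between the lines. The labels do not say whether the libraries of a group came from separate cultures. The p-values therefore measure only the spread between these libraries, which may be technical.

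In ATAC-seq, the transposase Tn5 inserts adapters where DNA is accessible, and a peak marks a pile of short fragments. During mitosis most transcription stops and many DNA-binding proteins leave the chromosomes, and sites that keep an accessible structure through division have been discussed as a form of mitotic bookmarking. Gene promoters rich in CpG are known for a nucleosome-free stretch just upstream of the start, whereas telomeric and satellite repeats make up the ends and the centromeric regions of mouse chromosomes.

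The members were of clearly different kinds, and 8 sequences are printed to show them. All are from the GRCm38 (mm10) assembly of RefSeq, written 5′ to 3′. Promoters come first, each shown over the 200 bp upstream of an annotated start, with the motif match in capitals: the NFY motif CCAATCA in either orientation for Aktip, at chr8:91134028-91134227 on the minus strand, and Zfp617, at chr8:71922652-71922851 on the plus strand, and the SP/KLF motif GGGGCGGGG for Ncoa2, at chr1:13372440-13372639 on the minus strand. These were the members with the highest mean percentile that were called in all 12 libraries, occurred once in the assembly, held a match and had no annotated exon in the stretch.
Aktip promoter: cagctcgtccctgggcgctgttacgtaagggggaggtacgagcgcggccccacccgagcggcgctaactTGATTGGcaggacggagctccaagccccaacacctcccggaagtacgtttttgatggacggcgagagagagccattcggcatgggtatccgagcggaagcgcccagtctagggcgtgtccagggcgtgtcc
Zfp617 promoter: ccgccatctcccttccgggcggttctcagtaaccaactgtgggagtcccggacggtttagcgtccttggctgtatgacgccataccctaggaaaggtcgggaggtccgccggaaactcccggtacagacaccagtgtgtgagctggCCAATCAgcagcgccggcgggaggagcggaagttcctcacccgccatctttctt
Ncoa2 promoter: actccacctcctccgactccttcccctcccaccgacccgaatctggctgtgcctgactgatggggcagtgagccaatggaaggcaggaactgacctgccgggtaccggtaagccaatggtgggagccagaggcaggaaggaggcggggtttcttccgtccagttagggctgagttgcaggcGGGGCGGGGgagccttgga
The next 2 are windows on the plus strand that reach 100 bp to each side of the middle summit of repeat-like members. The first, at chr6:103649103-103649303 in an intron, holds a match to the box bound by the centromere protein CENP-B, which is in capitals. The other, at chr13:77438860-77439060 in an intron, shares the 139 bases in capitals with other members of a satellite-like family.
CENP-B box near Gm44436: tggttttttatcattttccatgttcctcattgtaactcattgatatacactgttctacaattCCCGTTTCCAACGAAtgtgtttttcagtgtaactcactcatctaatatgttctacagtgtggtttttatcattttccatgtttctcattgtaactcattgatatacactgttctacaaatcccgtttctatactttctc
Satellite near Gm9634: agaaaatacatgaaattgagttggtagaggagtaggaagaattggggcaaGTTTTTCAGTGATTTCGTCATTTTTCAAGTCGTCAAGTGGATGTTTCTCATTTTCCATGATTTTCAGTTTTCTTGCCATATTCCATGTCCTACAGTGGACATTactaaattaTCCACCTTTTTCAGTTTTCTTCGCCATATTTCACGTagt
A pair of members on different chromosomes shows how strong peaks recurred with the same sequence. The Il31ra member lay at chr13:112578134-112578334 in an intron and the Mphosph8 member at chr14:56693932-56694132 in an intron, and the 115 bases in capitals in each were shared with the other as runs of at least 16 bases.
Near Il31ra: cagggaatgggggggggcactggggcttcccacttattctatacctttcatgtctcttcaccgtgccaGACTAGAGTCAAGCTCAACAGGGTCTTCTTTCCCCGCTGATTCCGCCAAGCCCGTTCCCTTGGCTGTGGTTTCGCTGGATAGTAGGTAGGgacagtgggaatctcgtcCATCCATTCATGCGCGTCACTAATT
Mphosph8 intron: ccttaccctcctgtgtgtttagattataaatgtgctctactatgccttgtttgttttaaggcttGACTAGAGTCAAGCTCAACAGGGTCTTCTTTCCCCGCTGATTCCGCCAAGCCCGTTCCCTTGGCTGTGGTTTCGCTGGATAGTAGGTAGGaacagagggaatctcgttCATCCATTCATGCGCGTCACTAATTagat
The last is an intergenic member at chr2:69355496-69355696, 12980 bp from the start of the bile salt exporter gene Abcb11, whose 129 bases in capitals match the mouse mitochondrial genome in runs of at least 24 bases.
Near Abcb11: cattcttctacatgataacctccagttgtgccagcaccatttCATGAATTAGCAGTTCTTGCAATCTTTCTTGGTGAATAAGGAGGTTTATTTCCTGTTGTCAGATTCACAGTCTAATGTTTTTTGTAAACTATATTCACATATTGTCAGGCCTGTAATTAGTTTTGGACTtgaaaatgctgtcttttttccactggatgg

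The lists differed widely in length, from 1746 peaks in Suv39h dn mitotic library 1 to 80602 in Suv39h dn asynchronous library 2, and the short library stands apart from the rest. Only 540 members (44.0%) had a peak in it, whereas each of the other 11 libraries had a peak in 85.8 to 99.8% of the members. Of the 1228 members, 359 were called in all 12 libraries, 502 in 11, 322 in 10 and 45 in 9, and 363 were missing in that short library alone. Without it, and with at least 2 of the remaining 3 mitotic libraries required, 1800 regions met the rule. Read depth is not part of a peak list, but the number of fragments at each summit could be recovered from fold and p-value for all 438517 peaks. The median peak of a list had 5 to 8 fragments and the median member 7 to 24, so a single fold value carries a large counting error. Fold was the ratio of pileup to local background after 1 was added to each, so it also depended on read depth. The median fold of the members was 8.23 in WT asynchronous library 1 and 12.3 in library 2. Differences in fold between preparations can therefore include differences in depth. The members were 68 to 4581 bp wide, with a median of 394 bp, and covered 502.9 kb.

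**Figure D1:**
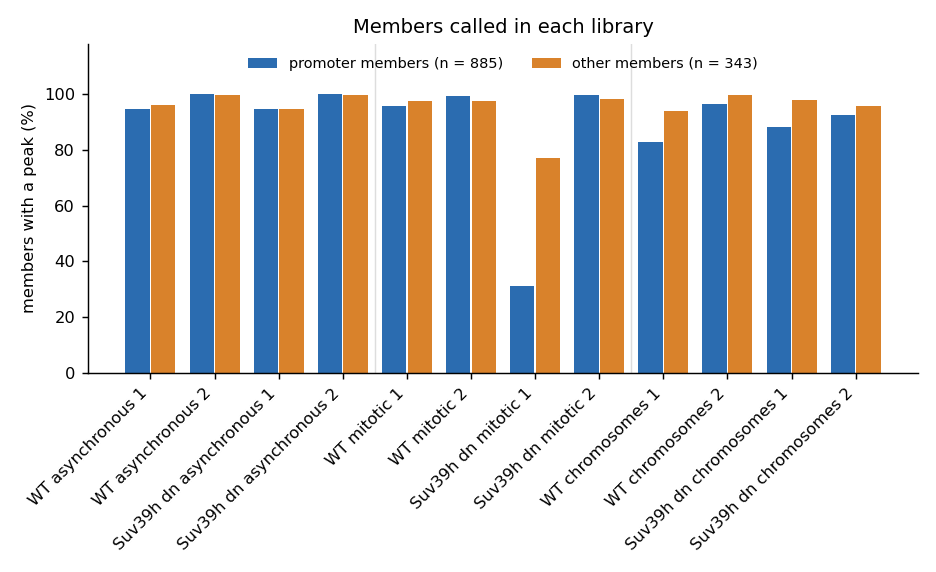
Percent of the 885 promoter members (blue) and of the 343 other members (orange) that had a peak in each of the 12 libraries, by genotype and preparation. Suv39h dn mitotic library 1 had a peak in far fewer promoter members than any other library, and the rule itself fixed the high shares elsewhere.

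Most members lay at gene starts. The middle summit was within 1000 bp of an annotated start of any kind for 943 members (76.8%, 95% Wilson interval 74.4 to 79.1%, for counting error only) and of a protein-coding gene for 885 (72.1%), which are called promoter members below. A start of any kind lay within 1000 bp for 22.9% of all merged regions. Among all merged regions 18.9% were at a protein-coding start. In 1150 regions called in at least 3 of 4 asynchronous and 3 of 4 mitotic libraries but on no sorted chromosomes the share was 46.8%, and in 498 regions called in asynchronous cells and on chromosomes but in no mitotic library it was 57%. Regions are not replicates and the members were selected with results known, so these shares are a description without a test. The share at any start depended on the rule: it was 48.2% of the 359 regions called in all 12 libraries, 39.5% of 337 under a stricter q of 1e-05 and 26.7% of 247 when peaks had to cover 50% of a region.

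The genes of the promoter members were of many kinds, and most lists of basic cell functions were near the background of all genes. Of 21755 protein-coding genes, 1027 had a member within 1000 bp of a start, which is a background of 4.72%. A member was found for 3 of 90 genes of cytosolic ribosomal proteins, 6 of 78 of mitochondrial ribosomal proteins, 6 of 67 of translation initiation and elongation factors, 3 of 40 of proteasome subunits, 4 of 52 of splicing factors, 6 of 98 of the respiratory chain and 3 of 66 of RNA polymerase II, TFIID and Mediator. The same was true of 3 of 35 replication genes, 2 of 19 genes of chromosome structure, 1 of 17 mitotic kinase and checkpoint genes, 3 of 82 histone genes and 21 of 394 genes of the Zfp zinc fingers. These shares lay between 3.33% and 10.5%, against 4.72% over all genes. Counted only over genes with a region in at least 3 of 4 asynchronous libraries, most of these lists were below the 13.4% of all such genes. On small counts, they ran from 6.52% for cytosolic ribosomal proteins and for histones to 18.8% for translation factors. None of the 14 immediate early genes, 59 Hox and lineage factor genes or 1135 olfactory receptor genes had a member, and 11, 8 and 6 of these genes had a region in at least 3 of 4 asynchronous libraries, a class of which 13.4% had a member over all protein-coding genes.

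Pluripotency genes were near the background. Of 25 such genes, 15 were called at a start in at least 3 of 4 asynchronous libraries and 2 had a member (8% of the list and 13.3% of those 15, against 4.72% and 13.4% over all genes), Zfp42 (Rex1, a zinc finger marker of ESCs) and Klf5 (a Krüppel-like factor of the pluripotency network). At Zfp42, the fold over local background was 10.4, 10.7, 8.56 and 11.5 in the asynchronous libraries (WT 1 and 2, then Suv39h dn 1 and 2), 7.03, 8.77 and 7.9 in the mitotic libraries with a peak, and 4.21, 5.81 and 7.51 on chromosomes. The Klf5 folds were 8.24, 12.7 and 12.8 in asynchronous, 8.45, 7.27 and 5.31 in mitotic and 6.13, 6.54 and 5.01 in chromosome libraries, with 1 library of each preparation lacking a peak. All 3 chromosome values of Zfp42 were thus below its 4 asynchronous values. Of the 12 ESC marker genes 8 had a region in asynchronous cells, and of 10 fibroblast marker genes none had, against 35.2% of all protein-coding genes. Only Zfp42 of the ESC markers had a member, and no fibroblast marker had.

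Among 18 genes of H3K9 methylation, the pathway that the Suv39h enzymes belong to, 3 had a member (16.7%, against 4.72% of all protein-coding genes), a count too small to read as more: Cbx5, which encodes the H3K9me3 reader HP1α, the H3K9 demethylase gene Kdm4a and Setdb2, of the SET-domain H3K9 methyltransferases. The Cbx5 region (chr15:103239315-103239610) also lay at a start of the splicing factor gene Hnrnpa1, and the Setdb2 region (chr14:59440776-59441131) lay 2 bp from a start of Cab39l. At Cbx5 the folds were 7.53, 12.6, 11.6 and 13.4 in asynchronous cells, 6.37, 7.35 and 7.503 in mitotic cells and 3.37, 6.86, 7 and 7.09 on chromosomes. Its lowest asynchronous value was thus level with the highest mitotic value. No peak at Cbx5 was called in Suv39h dn mitotic library 1, the short list.

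Divergent starts were frequent at the promoter members. A start of the opposite strand lay within 1000 bp upstream for 251 of the 885 (28.4%), against 13.0% of the 43676 merged regions at promoters and 18.2% of the 7800 promoter regions called in at least 3 of 4 asynchronous libraries. In windows of 100 bp to each side of the summit, the promoter members had a median GC content of 62.2% and a median ratio of observed to expected CpG of 0.80, close to the 61.2% and 0.72 of promoter regions open in asynchronous cells, with 60.2% and 0.58 at all promoter regions.

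Of the 12 motifs searched on both strands of these windows, the CCAAT motif of NFY (CCAATCA), a trimeric factor that binds many housekeeping promoters, stood out most in number. It was found in 221 promoter members (25.0%), in 4.54% of all promoter regions and in 15.2% of promoter regions open in asynchronous cells. Promoters or not, it was held by 19.3% of the members, by 17.9% of the regions called in cells and not on chromosomes and by 4.62% of those called in asynchronous cells and on chromosomes but not in mitotic cells. The GC box of SP and KLF factors (GGGGCGGGG) occurred in 15.6% of promoter members, against 7.15% and 13.5% in the same 2 promoter sets. The CREB/ATF motif TGACGTCA occurred in 4.86% against 1.17% and 3.15%, and the ZNF143 motif ACTACAATT in 1.47% against 0.238% and 0.936%. The ETS motif CCGGAAGT, in 5.54% of promoter members, was more frequent than over all promoter regions (2.41%) but not than at promoters open in asynchronous cells (6.33%). Motifs known from distal elements were rare at promoter members: the OCT4 octamer ATGCAAAT was in 1.24%, against 0.728% of all promoter regions and 1.76% of those open in asynchronous cells, and the AP-1 motif TGAGTCA in 1.13%, against 2.53% and 2.59%. The 4 CTCF core variants CCACCAGGG, CCACTAGGG, CCAGCAGGG and CCAGTAGGG were in 1.13% against 2.43% and 2.67%, and the Esrrb motif TNAAGGTCA in 0.113% against 0.696% and 0.487%. The remaining motifs, of NRF1, YY1 and USF/MITF, were in 2.15%, 1.69% and 0.791% of promoter members, against 2.38%, 1.77% and 1.10% of promoter regions open in asynchronous cells. A match is a description of the letters and not a bound site.

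At Aktip, which encodes a protein that takes part in telomere maintenance and vesicle transport, the NFY match began 131 bp before the start. Its folds were 12.3, 13.8, 9.67 and 14.7 in asynchronous cells, 9.78, 9.91, 6 and 11.1 in mitotic cells and 4.29, 5.61, 7.24 and 8.67 on chromosomes. At Zfp617, with the match 54 bp before the start, the folds were 7.77, 12.3, 10.7 and 15.6, then 7.81, 10.2, 5.68 and 7.32, then 7.51, 7.95, 5.34 and 6.90. For Ncoa2, a coactivator of nuclear receptors, they were 10.8, 16.7, 11 and 13.8, then 6.26, 7.53, 6.69 and 9.85, then 8.26, 5.94, 7.32 and 5.99. At Aktip and Ncoa2 the chromosome libraries lay below all asynchronous libraries, whereas at Zfp617 the ranges overlapped.

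The rank of a peak within its own list was used to order the members, since the lists differ in depth: the percentile of the fold was averaged over the libraries that had the peak. The 10 promoter members highest in this order and called in all 12 libraries, chromosome 18 aside, were at Mphosph8, Phf21a, Rsph3a, Asmt, Smarca5, Fto, Map3k3, Rab8a, Glcci1 and Fam192a, with mean percentiles from 99.5 down to 92.3. The first 5 of these shared sequence with other members. Smarca5 encodes the ATPase of ISWI chromatin remodelers, and its window had a median of 3 copies in the assembly. Its folds were 17.1, 20.5, 15.7 and 21.5 in asynchronous cells, 9.92, 13.4, 6.37 and 8.38 in mitotic cells and 11.1, 8.74, 7.14 and 12 on chromosomes, so every asynchronous library was above the other 8. Fto, a demethylase gene whose summit lay 91 bp upstream of its start, had 8.76, 20.3, 12 and 19.2 in asynchronous, 8.32, 10.9, 8.68 and 9.61 in mitotic and 6.44, 8.69, 6.65 and 8.10 in chromosome libraries. All chromosome values of Fto were just below its lowest asynchronous value, and the mitotic range overlapped with both.

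Other housekeeping promoters were of this height or lower. Top2b, encoding DNA topoisomerase II beta, had 10.4 to 22.1 in asynchronous, 7.13 to 9.16 in mitotic and 4.83 to 6.40 in chromosome libraries, with no overlap between the asynchronous and the chromosome range. Rpl15, a gene of the large ribosomal subunit next to Nkiras1, had 7.45 to 16.8, 7.57 to 8.87 and 5.79 to 8.54. Mcm5, of the replicative helicase, had 9.62 to 14.4, 7.03 to 10.2 and 4.75 to 6.19, and Eif5, a translation initiation factor gene, 7.28 to 14.0, 6.35 to 8.63 and 5.49 to 7.79. Ttk, the kinase gene of the spindle checkpoint, had 8.96 to 12, 4.80 to 7.82 and 5.27 to 7.10.

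On each side of the threshold of the rule, 1 region was examined by its mean percentile. They were the highest member with exactly 3 libraries in each preparation and the highest region short by 1 mitotic library, the latter with chromosome 18 aside. Pbx3 (chr2:34372961-34373369), called in exactly 3 libraries of each preparation, had folds of 11.7, 5.52 and 12.5 in asynchronous, 7.24, 6.22 and 8.87 in mitotic and 7.55, 5.85 and 6.63 in chromosome libraries. Just outside lay Ebag9 (chr15:44618889-44619279), with a peak in all asynchronous and chromosome libraries but in 2 of 4 mitotic libraries, at 10.2 and 9.56 there. Its folds were 11.4, 19.1, 11.6 and 23.9 in asynchronous and 6.68, 11.3, 7.44 and 9.44 in chromosome libraries, and its mean percentile of 97.6 was above that of most promoter members. In all, 597 regions missed the rule by 1 mitotic library, 414 by 1 chromosome library and 22 by 1 asynchronous library. The mitotic libraries set the limit, since 36.1% of the regions called in at least 3 of 4 mitotic libraries were members, against 7.61% for chromosomes and 5.23% for asynchronous cells.

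The 343 members away from protein-coding starts had the higher peaks. Their median fold was 10.9 to 14.7 in asynchronous, 11.6 to 15.1 in mitotic and 14.8 to 17.4 in chromosome libraries, where promoter members had 7.62 to 13.0, 5.66 to 7.72 and 5.19 to 6.12. In each of the 12 libraries the other members were above the promoter members. Of the 92 members with a mean percentile over 99, 90 were other members. This was not particular to the members, since 182 of the 185 merged regions over 99 lay away from protein-coding starts. Among the 100 highest peaks of each list 73 to 96 lay in members. Of the other members, 220 were called in all 12 libraries, compared with 139 promoter members.

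**Figure D2:**
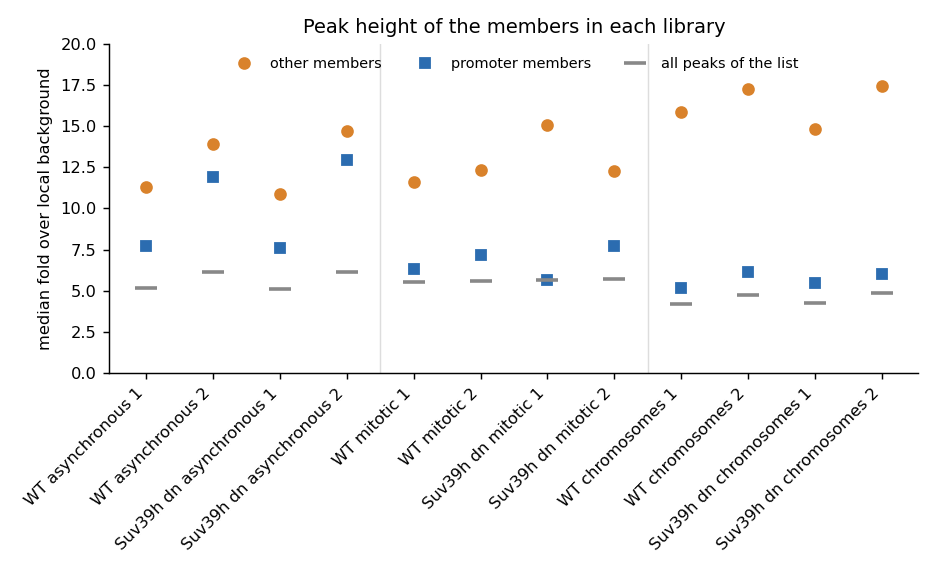
Median fold over the local background of all peaks of a list (gray dashes), of promoter members (blue squares) and of other members (orange circles) in each of the 12 libraries. The other members sit above the promoter members everywhere, and the gap is widest on sorted chromosomes and in Suv39h dn mitotic library 1.

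A large share of the strong members was repeated sequence. The window of a member was called repeated when its runs of 32 bases had a median of more than 1 copy in the assembly. This held for 177 other members (51.6%), against 19.4% of all regions away from promoters. It held for 57 promoter members (6.44%), against 3.36% of all promoter regions and 3.17% of those open in asynchronous cells. Over all regions the share was 16.3%. Members were also grouped into families when their windows shared at least 20% of their runs of 16 bases on either strand. This placed 257 members into 39 families, of which 9 families with at least 5 members held 186. Of the 343 other members, 250 were in a family, repeated or matched to mitochondrial sequence, and 93 were none of these. The part of copy number in the height of these peaks was not tested.

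The largest family was telomeric. All its 64 members held at least 3 uninterrupted copies of TTAGGG, the repeat unit of vertebrate telomeres, on either strand, and 57 were called in all 12 libraries. Among all merged regions 136 held such a run, so 47.1% of them were members, while none of the 1150 regions called in cells alone did. The family lay on 20 chromosomes, with 18 members within 1 Mb of an end of the assembled chromosome, 44 in intergenic sequence, 20 in introns and none in exons. Its median fold was 14.8, 18.1, 16.2 and 20.3 in the asynchronous libraries, 14.1, 16.3, 17.5 and 15.7 in the mitotic libraries and 30.3, 33.7, 28.3 and 31.1 on chromosomes. In 61 of the 64 members every chromosome library with a peak was above every cell library with a peak, which was so for 12.1% of all members. The ranges of mitotic and asynchronous cells overlapped.

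The second family was satellite-like, and included sequence at which Suv39h enzymes are known to deposit H3K9me3 in mouse cells. Of its 52 members, 41 were called in all 12 libraries. On chromosome 9, 41 of them made up a cluster at chr9:3000291-3038222, the largest of the set, whose sequence matched itself best at a shift of 234 bp (71.3% identity), the known length of a major satellite unit. Here 33 members counted as promoter members through predicted genes such as Gm10722, which shows that the promoter count includes repeats. The median fold of the family was low, at 4.58, 4.00, 4.36 and 4.15 in asynchronous cells, 4.4, 4.53, 4.20 and 4.55 in mitotic cells and 6.27, 5.93, 6.74 and 5.64 on chromosomes, although the median number of fragments at the summit was 80.0 to 89.0 in cells and 34.5 to 56.5 on chromosomes. WT and Suv39h dn overlapped in each preparation. The genotype fit described below tested all 52 members in asynchronous and in mitotic cells and 41 on chromosomes and called none of them, with log2 differences between genotypes from -0.27 to 0.06, from -0.13 to 0.24 and from -0.27 to 0.47.

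Of a family of 5 members with AT-rich sequence, at a median GC content of 33.8%, 3 had a mean percentile over 99 and are given here, while the other 2, on chromosome 2, were lower, down to a mean percentile of 74.8. The CENP-B box was searched after the sequences had been seen, as 15 letters with free positions, and it occurred in 43 regions and 5 members, 4 of them in this family. The member near Pak3 (chrX:143483000-143483110) had folds of 60.8, 56.1, 58.0 and 55.8 in asynchronous, 58.3, 60.0, 59.2 and 58.4 in mitotic and 52.5, 59.5, 53.7 and 54.1 in chromosome libraries. At the member near Gm44436 (chr6:103649055-103649291) the folds were 52.8, 48.4, 50.9 and 48.1, then 49.9, 50.5, 48.6 and 50.2, then 56.7, 55.6, 59.8 and 55.3. The member near Gm47772 (chr9:24542015-24542251) had 58.8, 55.3, 50.9 and 57.2, then 52.0, 56.7, 55.2 and 55.3, then 32.4, 41.6, 32.3 and 43.4. Thus the chromosome libraries were above all cell libraries near Gm44436, below all of them near Gm47772 and overlapped with them near Pak3.

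At the satellite-like member near Gm9634, the folds were 43.9, 40.9, 46.1 and 45.2 in asynchronous, 43.7, 46.2, 45.9 and 46.4 in mitotic and 30.8, 37.8, 26.7 and 41.3 in chromosome libraries, and 3 of these 4 were below all cell libraries. The Il31ra and Mphosph8 members belonged to a family of 11. Folds at Il31ra were 44.2, 47.9, 47.8 and 51.0, then 50.4, 52.5, 48.6 and 51.7, then 53.0, 56.4, 55.4 and 55.5. At Mphosph8 they were 17.1, 23.4, 18.4 and 27.4, then 26.9, 28.5, 26 and 32.6, then 32, 35.6, 35.6 and 37.3. The Mphosph8 peak lay 608 bp downstream of the start in an intron, and its sequence was shared with the Il31ra member. Whether its reads can be told from those of its copies was not tested, so the peak cannot be read as one of the Mphosph8 gene. Whether this family is ribosomal RNA sequence was not tested either, because the assembly holds little of that sequence. Families of 17 and 15 members, led by regions near Arhgap21 and Gm20281, had median folds of 18.6 to 31.7 and 28.7 to 35.0 over the 12 libraries.

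Mitochondrial sequence gave 14 members. A match was called when at least 20% of the runs of 24 bases in the window were in the mitochondrial genome, which was the case for 18 merged regions, and all 14 members were called in all 12 libraries. Near Abcb11 the folds were 47.6, 48.6, 46.2 and 50.5 in asynchronous, 44.5, 52.2, 45.8 and 50.9 in mitotic and 24, 40.8, 19.6 and 37.5 in chromosome libraries, so that all chromosome values were the lower ones. Mitochondrial reads were removed according to the methods, and the part of such reads in these nuclear matches was not tested. A further 4 members at chr17:39843015-39848799, over the noncoding genes Gm26917 and Gm42418 and an annotated ribosomal RNA gene, had 77 to 126 fragments at the summit but a fold of only 1.99 to 2.88, the lowest percentiles among the members. A family of 11 members lay on chromosome 6 in clusters of 5 (chr6:47654804-47685578) and 6 (chr6:47739617-47778519), with the small RNA genes Gm25283 and Rny3 as their nearest starts.

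**Figure D3:**
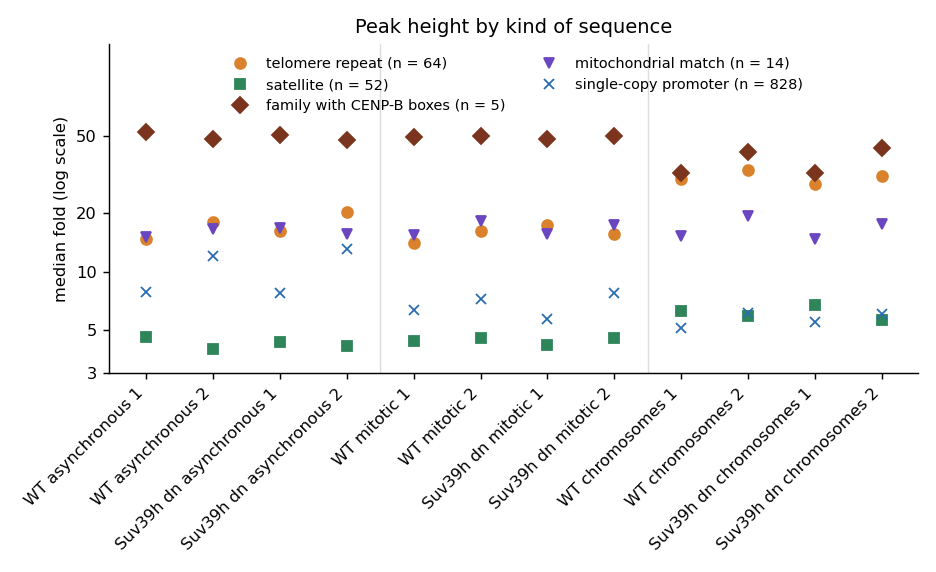
Median fold over the local background, on a log axis, in each of the 12 libraries for members of 5 kinds of sequence. Telomere-repeat members are higher on the 4 chromosome libraries (28.3 to 33.7) than in the 8 cell libraries (14.1 to 20.3), single-copy promoter members range from 7.73 to 13.1 in asynchronous, 5.73 to 7.81 in mitotic and 5.11 to 6.12 in chromosome libraries, and satellite members lie at 4 to 4.58 in cells and at 5.64 to 6.74 on chromosomes.

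The place of the summit within promoters was a measure that the rule did not use. It was compared over libraries, as the median position relative to the nearest protein-coding start over the 139 promoter members called in all 12 libraries. The summit lay 57.8 bp upstream in asynchronous cells (-57.8 ± 7.59 bp, SD, n = 4 libraries) and at -62.5 ± 14.5 bp in mitotic cells (n = 4). On sorted chromosomes it lay at 0.75 ± 13.2 bp (n = 4), a position that depended on the regions used, as given below. The library medians ran from -68 to -52 bp, from -78 to -43 bp and from -16 to 16 bp, so the chromosome libraries did not overlap with any cell library. Chromosomes differed from asynchronous cells by 58.5 bp and from mitotic cells by 63.3 bp, each with a two-sided exact permutation p of 0.0286 and 0.0429 after adjustment over the 3 comparisons. Libraries were permuted without regard to genotype, and 0.0286 is the smallest p that 4 against 4 libraries allow in this way. The difference was 60.0 bp in WT and 57 bp in Suv39h dn against asynchronous cells. Mitotic and asynchronous cells differed by -4.75 bp (exact permutation p = 0.6), and this difference depended on the regions used.

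Restricted to 107 of these promoters whose window occurs once in the assembly, which leaves out the satellite cluster, the mean positions were -77.0, -88.0 and -22.3 bp in asynchronous cells, mitotic cells and chromosomes. The differences of chromosomes from asynchronous and mitotic cells were then 54.8 and 65.8 bp, and mitotic cells differed from asynchronous cells by -11 bp (each with an exact permutation p of 0.0286). Over all 885 promoter members the mean position on chromosomes was -29.4 bp, upstream of the start, and its difference from asynchronous cells was 43.4 bp. The summit lay upstream of the start in 67.6 to 70.5% of these 139 members in the cell libraries and in 45.3 to 54.0% in the chromosome libraries. Region by region the shift was smaller, with a median of 11.5 bp downstream from asynchronous cells to chromosomes: it was downstream at 85 of the 139 and upstream at 54, and within 50 bp at 69. The mean summit moved more than 50 bp downstream from asynchronous cells to chromosomes at 51 of the 139 and more than 50 bp upstream at 19. The 284 promoter regions called in asynchronous cells and on chromosomes but not in mitotic cells also had library medians of -39.0 to -24 bp in asynchronous cells and of 9 to 33.5 bp on chromosomes, so the shift was not particular to the members.

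**Figure D4:**
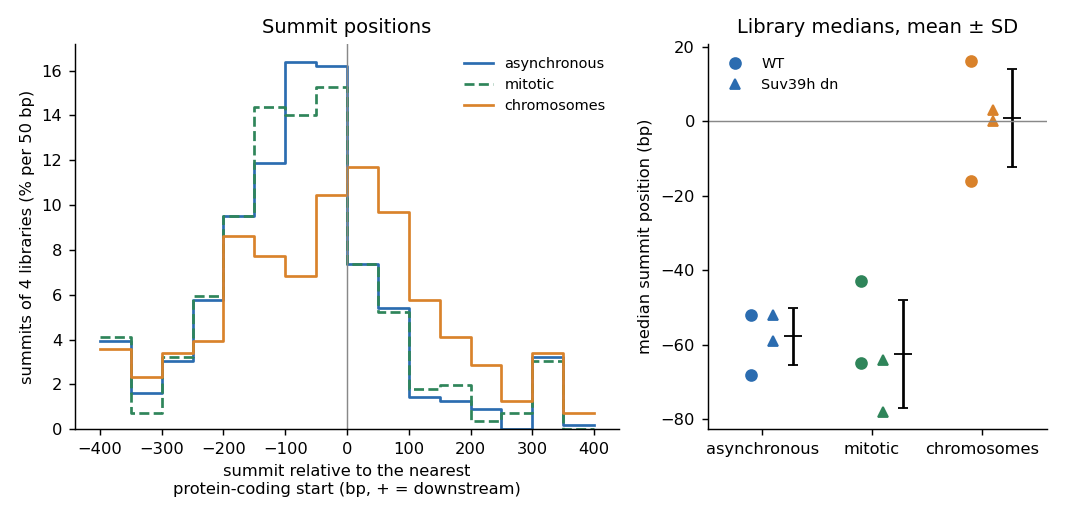
Summit positions at the 139 promoter members called in all 12 libraries. The left panel gives the percent of summits per 50 bp in asynchronous cells (blue), mitotic cells (dashed green) and chromosomes (orange), relative to the nearest protein-coding start with downstream positive, and the right panel the median of each library (circles WT, triangles Suv39h dn) with the mean and SD of 4 libraries. The 4 chromosome libraries lie between -16 and 16 bp, all above the 8 cell libraries.

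At other members called in all 12 libraries the summits lay close together between libraries. Only 39 of these members were neither repeated, in a family nor matched to mitochondrial sequence. The distances were not computed for single-copy windows alone, so they do not describe distal sites in general. Whether repeated sequence accounts for the difference from promoter members was not tested. The 220 other members called in all 12 libraries had summits a median of 5.50 to 7 bp apart between asynchronous libraries, 6 to 7 bp between mitotic and 5 to 6 bp between chromosome libraries, and 6.50 to 8 bp between asynchronous and chromosome libraries. At promoter members the same distances were 13.0 to 30.0, 24 to 41.0 and 27 to 42.0 bp within preparations and 46 to 70.0 bp between asynchronous cells and chromosomes.

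The members were unevenly spread over chromosomes. Of 7553 single-copy promoter regions called in at least 3 of 4 asynchronous libraries, 828 (11%) were members. The share was 18.8% on chromosome 8 (96 of 511) and 17.4% on chromosome 11 (97 of 557) but 0.791% on the X chromosome (2 of 253). The local background of peaks away from promoters, relative to the median chromosome of a library, was high or low in the same direction on these 3 chromosomes but not on all: it was 1.20 to 1.37 on chromosome 8, 1.04 to 1.54 on chromosome 11 and 0.688 to 0.91 on X in all libraries but Suv39h dn mitotic library 1, where X was at 2.78. Chromosomes 14 and 19, with shares of 15.6% and 15.7%, had a background of 0.857 to 1 and of 0.96 to 1.2, and chromosome 7, with 8.19%, one of 1 to 1.14. The part of the background in the shares was not tested. The paper states that all lines used were male, so X is expected in 1 copy against 2 of an autosome. Beyond that, copy number in these lines cannot be told apart from accessibility here.

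**Figure D5:**
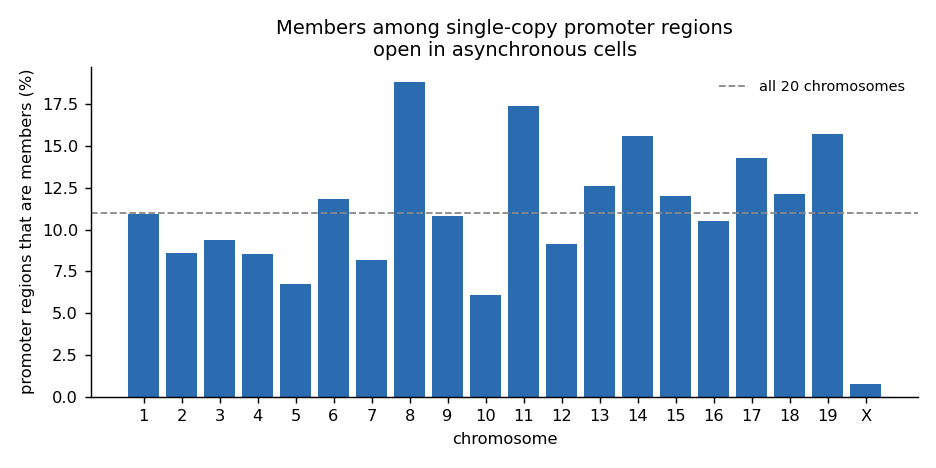
Percent of single-copy promoter regions open in asynchronous cells that were members, for each chromosome, with the dashed line at the 11% over all 20 chromosomes. Chromosomes 8 and 11 stand highest and the X chromosome, with 2 of 253, lowest.

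The comparison of genotypes asks whether the height of peaks called in both genotypes differed between Suv39h dn and WT. It was made within each preparation with limma on log2 of the fold, centered on the median of each library, over all merged regions with a peak in all 4 libraries, and the Benjamini-Hochberg adjustment ran over all of them. In asynchronous cells 0 of 1100 members passed an adjusted p of 0.05, against a background of 0% (0 of 10427 regions), and 21 members had an unadjusted p under 0.05, against 2.94% of all regions. On chromosomes 0 of 831 members passed, against 0.0161% (1 of 6227), and 25 had an unadjusted p under 0.05, against 5.78%. In mitotic cells 3 of 472 members passed, against 0.504% (4 of 793), and 16 had an unadjusted p under 0.05, against 3.91%. With 2 libraries per group, small changes may be missed. The rule asked for a peak in at least 3 of 4 libraries, so every member had a peak in both genotypes in each preparation. The fit left out regions without a peak in all 4 libraries. Sites open in 1 genotype only could thus not be called, and the low counts do not speak to them.

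All 3 mitotic calls were at repeated sequence. A member in an intron of Khdrbs2 (chr1:32378484-32378687), whose runs of 32 bases had a median of 2198 copies in the assembly, had a fold of 6.63 and 11.3 (WT) against 19.7 and 26.1 (Suv39h dn) in the mitotic libraries (log2 difference 1.46 ± 0.291, SE, limma adjusted p = 0.000765). In asynchronous cells it had 6.13 in the only WT library with a peak and 24.3 and 32.1 in Suv39h dn, and on chromosomes 35.5 and 32.4 (WT) against 36.3 and 43.6 (Suv39h dn). A telomere-repeat member near the noncoding gene 4930558G05Rik (chrX:129056554-129056665) had 7.46 and 8.88 (WT) against 16.4 and 19 (Suv39h dn) in the mitotic libraries (log2 difference 1.19 ± 0.288, SE, limma adjusted p = 0.0169). The other 56 telomere-repeat members tested in mitotic cells did not pass, and the median log2 difference over the 57 tested was 0.23.

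The other member, 4348 bp from the start of the predicted gene Gm21887 (chrX:170005200-170005479), was lower in Suv39h dn. It had 25.4 and 21.4 (WT) against 6.78 and 8.46 (Suv39h dn) in the mitotic libraries (log2 difference -1.54 ± 0.289, SE, limma adjusted p = 0.000336). On chromosomes its folds were 13.7 and 16.5 (WT) against 7.34 and 5.53 (Suv39h dn) (log2 difference -1.27, limma adjusted p = 0.404), and in asynchronous cells 27.6 and 22.3 against 12.3 and 15.3 (log2 difference -0.93, limma adjusted p = 1.0). WT and Suv39h dn libraries did not overlap in any preparation at this member, whose window had a median of 8 copies. In mitotic cells all 3 calls were lost when WT mitotic library 1 was left out or when the log2 values were scaled by quantiles, left uncentered, computed from fragments or limited to stricter peaks, or when regions with a peak in 3 of 4 libraries entered.

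Among members that did not pass, the smallest p in asynchronous cells were at Dynlt1b, a dynein light chain gene whose window had a median of 3 copies, with 7.96 and 12.2 (WT) against 4.26 and 6.20 (Suv39h dn), and at a telomere-repeat member 2000 bp from Gm17655, with 12 and 13.8 (WT) against 5.97 and 7.67 (Suv39h dn). Both had a limma adjusted p of 1.0. On chromosomes, after the member of Gm21887 given above, the smallest p was at a member 12 bp from the start of Gm21887 (chrX:170009822-170010178), with 9.17 and 11.8 (WT) against 5.06 and 5.72 (Suv39h dn) and a limma adjusted p of 0.661.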

How the data were processed

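ATAC-seq peak lists of 12 libraries were analyzed, 2 per genotype and preparation, grouped by the sample labels. Per the study's methods and the submitters' processing notes, the authors trimmed reads (Trim Galore 0.4.4), aligned them to mm10 (Bowtie2 2.2.9), removed duplicate and mitochondrial reads, shifted read ends, kept fragments under 100 bp and called peaks with MACS2 on each library. Removal of blacklisted regions is stated, and whether the deposited lists include it was not tested. The deposited lists give, per peak, a score, a fold enrichment (the ratio of pileup to local background) and both −log10 p-value and −log10 q-value. Fragments at the summit followed from fold and p-value (tolerance 0.001 in −log10 p).

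Distances, features and sequence used GRCm38 and GENCODE starts. Genotypes were compared with limma 3.58.1 (R 4.3.3) on log2 fold, and summit positions by an exact permutation test over libraries (scipy 1.17.1, Python 3.11.15). The study's voom design needs counts, which peak lists do not hold. Regions were named by these rules: the 10 promoter and 6 distal members with the highest mean percentile among those in all 12 libraries, members of the pluripotency and H3K9 methylation lists, the 3 largest genotype calls in each direction per preparation or, without calls, the 2 smallest p, 1 region on each side of the threshold, and the highest members of each gene list. The sequence of 1 member is not reported here. The shown promoters and repeats, the families, the summit comparison and the CENP-B box were chosen after values were seen. The members and lists were chosen with earlier results of these data known. Functions were tested on simulated data. The alternatives are given at the end.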

Additional observations from a re-analysis of the deposited data

Results flagged for a closer look

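Peaks outside chromosomes 1 to 19 and X, which the regions above do not include, were all on the Y chromosome. They numbered 17 to 1005 per library, with the highest number in WT chromosome library 2, 869 in WT chromosome library 1, and 550 and 333 in the Suv39h dn chromosome libraries. The asynchronous libraries had 49 and 137 (WT) against 83 and 476 (Suv39h dn), and the mitotic libraries 17 to 40. The paper states that all lines used were male, so peaks on the Y chromosome can occur in every library.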

How the results depend on the processing

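The number of members moved from 1228 to 337 with peaks at q of 1e-05 or less, 247 when a peak had to cover 50% of a region, 460 with lists of equal length within a preparation, 359 with 4 of 4 libraries and 2771 with 2 of 4, and lay between 1229 and 1800 with single libraries left out. The share at any start was 39.5%, 26.7%, 54.1%, 48.2% and 79.2% in the same order, 76.4 to 79.7% with single libraries left out, 73.0% within 500 bp, 72.1% for protein-coding starts and 85.9% for single-copy windows. The mitotic genotype calls went from 3 to 0 with quantile scaling, no centering, regions in 3 of 4 libraries, the stricter q or fragments, and from 0 to 4 with single libraries left out. In asynchronous cells the calls were 0 under every alternative, and on chromosomes 0 to 1 with single libraries left out, the 1 appearing without Suv39h dn chromosome library 1.

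The replicate numbers are not said to mark a shared culture or day. Deviations of same-numbered libraries correlated at 0.261, 0.164 and 0.0908 in asynchronous cells, mitotic cells and chromosomes. With the replicate block, 0, 3 and 0 members passed.

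Leaving out single libraries, the summit difference was 53.4 to 64.1 bp (chromosomes against asynchronous) and 58.1 to 69.8 bp (chromosomes against mitotic), with a smallest possible exact permutation p of 0.0571 for 3 against 4. The mitotic against asynchronous difference was -11 bp for single-copy windows, 2.75 bp over all promoter members, 2.5 bp without divergent starts and -11.3 to 0.417 bp with single libraries left out, the last without Suv39h dn mitotic library 1. The single-copy and summit alternatives were chosen after seeing the data. The causes were not tested. A median of 5 to 8 fragments per peak limits what a single region can show.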

Other observations

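Away from protein-coding starts, 93 members were neither repeated in the assembly, in a family nor matched to mitochondrial sequence. Their median mean percentile was 84.2, and 39 of them were called in all 12 libraries. Copies missing from the assembly were not counted. The set thus included chr17:39845056-39845672, at the locus with the annotated ribosomal RNA gene, with a mean percentile of 0.0645. Of the 93 members, 57 lay in intergenic sequence, 26 in introns and 10 in exons. In addition, 20 were within 1000 bp of a start of another kind of gene, 14 lay within 5 kb of a protein-coding start and 2 were at tRNA genes. Their median window had a GC content of 55.2% and a ratio of observed to expected CpG of 0.47. The other members close to a tRNA gene, within 250 bp, were 7 promoter members, so 9 members in all, of 291 such regions.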
